A study of Rattus norvegicus with 16 samples.

Results

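CA1 was compared with CA3 at 30 min in rat organotypic hippocampal slice cultures, which are slices of living brain kept on a membrane in culture with their neurons, glia and much of their local wiring. The comparison used the 4 arrays labelled T30m, read here as 30 min, out of 16 arrays in the series: 2 of CA1 and 2 of CA3, paired by the replicate number in their titles. The series measured both fields at T0, 30 min, 3 h and 12 h, with 2 biological replicates of each, and its title names oxidative stress. All groups are total RNA of Rattus norvegicus slice cultures and differ by field and time in the labels; the labels used here name no agent or dose, do not relate T0 to an exposure, and give no strain or age of the rats. The labels do not say whether replicates came from separate animals, so the spread between replicates may be partly technical. All values are log2 expression values from Affymetrix arrays, on which 1 unit is a 2-fold difference, and a difference is always CA1 minus CA3.

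CA1 and CA3 are neighbouring fields of hippocampal pyramidal neurons. CA3 neurons receive the mossy fibres of the dentate gyrus and send the Schaffer collaterals to CA1, and CA1 neurons are generally the first to die after ischaemia or oxidative injury. Tissue taken from either field also holds interneurons, astrocytes, microglia and oligodendrocytes, which wrap axons in myelin. Immediate early genes, such as those of the Fos, Jun, Egr and Klf families, are transcribed within minutes of a stimulus from preformed transcription factors and are short-lived.

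The arrays of the 2 replicates at 30 min differed in their controls. The spiked-in Bacillus transcripts averaged 6.027 (log2) in CA1 and 6.318 in CA3 in replicate 1, and of 4.37 and 4.149 in replicate 2, against 4.318 to 6.464 on the 12 arrays of the other times. The hybridization control BioB read 9.13 and 10.639 in replicate 1 and 5.848 and 6.429 in replicate 2, against 6.209 to 9.433 at the other times, so that CA3 replicate 1 lay above that range and CA1 replicate 2 below it. Its CA1 minus CA3 difference was -1.51 in pair 1 and -0.58 in pair 2, against -1.23 to 1.03 in the other pairs. The 3' minus 5' signal of GAPDH, which grows when RNA is shortened, was higher in CA1 than in CA3 by 0.71 in pair 1 and 0.72 in pair 2, against 0 to 0.46 in the 6 pairs of the other times. Its part in the results below was not tested. Many results are therefore given in both pairs, and the others only as the mean of the pairs.

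No gene passed the test at 30 min. Of 15866 probe sets, 0 (0%) had an adjusted p under 0.05 in limma, with the 8 CA1 minus CA3 pairs of all times sharing 1 estimate of the spread. The smallest adjusted p was 0.0737, for the myelin gene Mag. At an unadjusted p under 0.05 there were 1028 probe sets (6.48%), with 672 (4.24%) on the higher and 356 (2.24%) on the lower side of CA1, where chance alone gives 793. The differences below are thus described by their size and, for many of them, in both pairs, and none of them is a call.

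Both pairs agreed for only part of the genes. Of 10411 genes, each read from the probe set with the highest mean, 2811 (27%) were higher in CA1 in both pairs and 3229 (31%) lower in both. The 2 pair differences correlated at 0.18 across genes, which share their arrays and are not independent. Pair 1 was the more spread, with 548 genes (5.26%) at least 2-fold apart against 254 (2.44%) in pair 2. A difference of at least 2-fold in the same direction in both pairs was found for 43 genes higher in CA1 (0.413%) and 8 lower in CA1 (0.0768%).

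**Figure D1:**
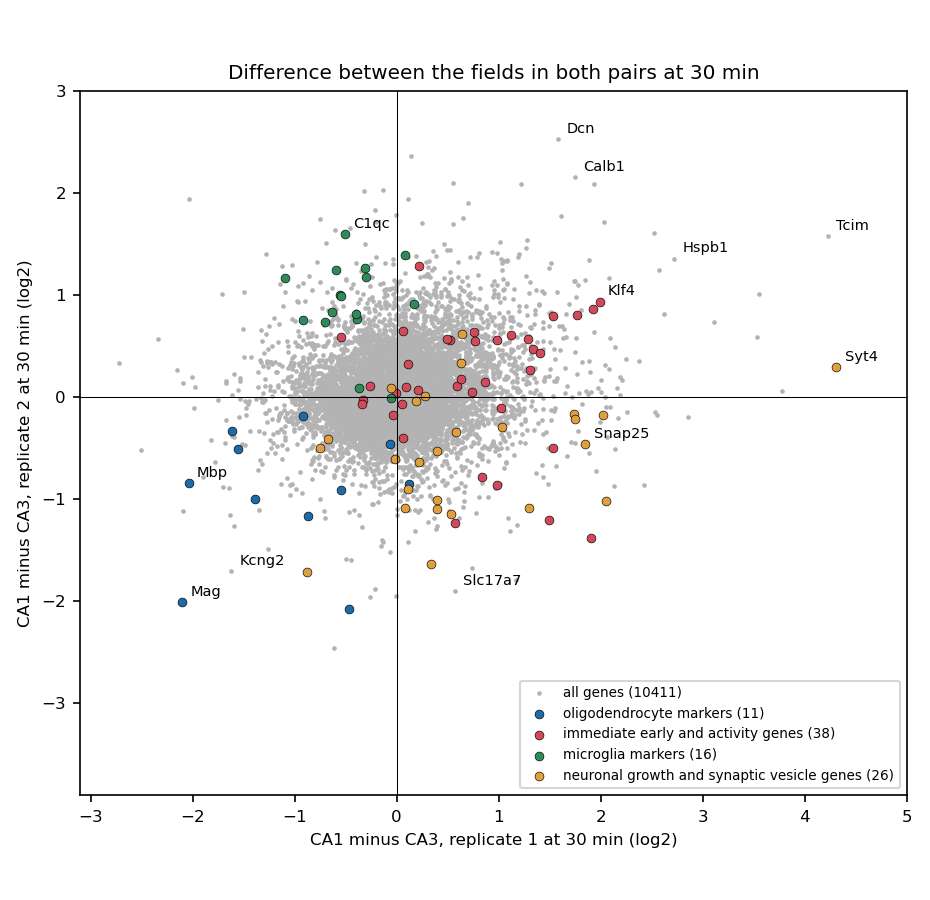
Each point is 1 of 10411 genes, with the CA1 minus CA3 difference at 30 min in replicate 1 on the x axis and in replicate 2 on the y axis (both log2). Oligodendrocyte markers (11) lie below 0 in both pairs for 10 genes, immediate early genes (38) mostly to the right, and microglia markers (16) and neuronal growth genes (26) mostly in quadrants where the pairs have opposite signs.

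The gene furthest below CA3 in CA1 was a myelin gene, and of the 8 genes at least 2-fold lower in both pairs Mag and Pllp are oligodendrocyte markers. Mag, an adhesion protein of the myelin membrane next to the axon, read 5.59 and 7 in the 2 CA1 arrays and 7.69 and 9.01 in the CA3 arrays. Both CA1 arrays lay below both CA3 arrays, and the difference was -2.05 ± 0.22 (moderated standard error, n = 2 pairs; 4.15-fold lower in CA1; limma adjusted p = 0.0737). Its small error rests on the pairing, and without it the error was 0.47. Mbp, the main cytoplasmic protein of compact myelin, read 9.66 and 11.50 in CA1 against 11.71 and 12.34 in CA3. Its groups did not overlap either, and its difference of -1.44 ± 0.30 (adjusted p = 0.484) was matched by -1.29 on its other probe set.

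Other myelin genes lay the same way. Pllp, a proteolipid of myelin, read 7.76 and 8.74 in CA1 and 9.16 and 9.74 in CA3, a difference of -1.20 ± 0.23. Tspan2, a tetraspanin of oligodendrocytes, read 7.97 and 8.64 against 8.85 and 9.81, a difference of -1.02 ± 0.25, with -1.23 on its other probe set. Aspa, the oligodendrocyte enzyme that splits N-acetylaspartate, read 6.29 and 6.11 against 7.85 and 6.63, a difference of -1.04 ± 0.31. In all 3, both CA1 arrays were below both CA3 arrays, as for 14.4% of all genes, and none passed (adjusted p = 0.484, 0.497 and 0.582, limma).

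Of the 16 oligodendrocyte markers listed, 11 were measured, and all 11 were lower in CA1 in the mean of the pairs, against 52.8% of all genes. Of these 10 were lower in both pairs and 9 had groups that did not overlap, against 14.4% of all genes not overlapping and lower in CA1. None passed, and 8 had an unadjusted p under 0.05, against 2.47% of all genes on the lower side. Their median was -1.02 (-0.92 in pair 1 and -0.85 in pair 2), beside -0.02 for all genes. The median was also below 0 in each of the 6 other pairs, from -1.38 to -0.16, with T0 at -0.33, 3 h at -0.57 and 12 h at -1.03. In these tissue samples fewer cells of a type and less RNA per cell cannot be told apart. The 5 measured markers of oligodendrocyte precursors, the cells that give rise to oligodendrocytes, had a median of -0.19. Among them the transcription factor Sox10, which oligodendrocytes also express, lay at -0.66 ± 0.40 and Olig1 at -0.48 ± 0.31, with groups that did not overlap for either gene.

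**Figure D2:**
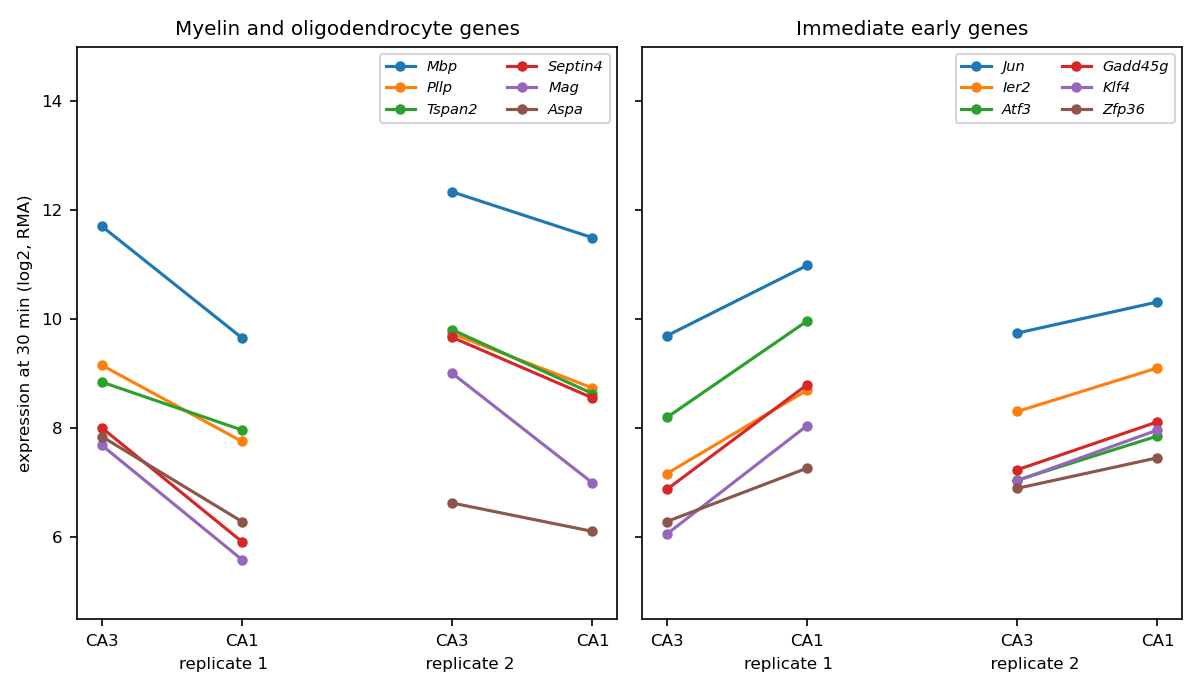
Log2 expression (y axis) of oligodendrocyte markers with Septin4 (left) and of 6 immediate early genes (right) on each of the 4 arrays of 30 min (x axis). Lines join the CA3 and CA1 arrays of a pair, and Septin4 is not in the oligodendrocyte marker list. Every line on the left ends lower in CA1 and every line on the right higher, with differences of -2.10 and -2.01 for Mag and of 1.99 and 0.94 for Klf4. The genes shown are ones with the same sign in both pairs, so this follows from their choice. Of the 38 immediate early genes measured, 12 had opposite signs in the pairs and 3 were lower in both.

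The rest of the 8 genes at least 2-fold lower in CA1 in both pairs included ion channel and signalling genes. Kcnv1, a potassium channel subunit that modifies other channels, read 4.24 and 5.40 in CA1 and 5.84 and 6.66 in CA3, with no overlap (-1.43 ± 0.28, adjusted p = 0.484). Kcng2, another modifying subunit, read 5.34 and 5.19 against 6.96 and 6.89 (-1.66 ± 0.39), but its 2 other probe sets lay between -0.27 and 0.25, so its difference rests on 1 probe set. The same holds for the scaffold protein striatin, Strn, which read 7.23 and 7.56 against 8.58 and 8.66 (-1.23 ± 0.18, adjusted p = 0.269) and 0.09 on its other probe set.

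The cytokine gene Il16 read 6.25 and 5.75 in CA1 and 7.51 and 7.24 in CA3 (-1.38 ± 0.52). Septin4, a cytoskeletal GTPase, read 5.92 and 8.56 against 8.01 and 9.67 (-1.60 ± 0.38), and the neuronal Ras exchange factor Kndc1 4.95 and 7.88 against 6.58 and 9.03 (-1.39 ± 0.25). For these last 2 genes each CA1 array was below its partner, while the groups overlapped because both replicate 2 arrays were high. Below 2-fold in at least 1 pair, the leading genes were Wscd1 (-1.27), the vesicle SNARE Vamp1 (-1.30, with -0.34 to -0.15 on its other probe sets), the CA2 marker Pcp4 (-1.29), the ubiquitin ligase Marchf8 (-1.01), Tmcc2 (-0.94) and the adhesion receptor Mpzl1 (-0.94).

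Of the genes higher in CA1, Tcim, a small regulator of Wnt signalling, had the largest mean difference, with 10.13 and 8.62 in CA1 and 5.9 and 7.04 in CA3. Both CA1 arrays were above both CA3 arrays (2.90 ± 0.70, 7.48-fold, adjusted p = 0.497), although pair 1 gave 4.23 and pair 2 gave 1.58. Hspb1, a small heat shock protein that binds unfolded proteins and actin, read 11.85 and 11.45 in CA1 against 9.13 and 10.09 in CA3. This was a difference of 2.04 ± 0.50 (4.12-fold, adjusted p = 0.497), again with no overlap.

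Cp, the copper-carrying ferroxidase ceruloplasmin, differed almost equally in both pairs, by 1.93 and 2.09. Its arrays read 10.52 and 8.55 in CA1 and 8.60 and 6.46 in CA3, so that replicate 2 of CA1 overlapped replicate 1 of CA3 (2.01 ± 0.68), and its 2 other probe sets gave 1.46 and 1.56. Calb1, the calcium buffer calbindin, which is known from dentate granule cells and a part of the CA1 pyramidal neurons, read 10.02 and 8.45 against 8.27 and 6.29 (1.95 ± 0.58). The groups of Calb1 did not overlap, and the 5 measured dentate granule cell markers beside it had a median of -0.17.

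Some of the named genes encode proteins outside the cell. Efemp1, a fibulin of the extracellular matrix, read 7.60 and 7.76 in CA1 and 5.58 and 6.04 in CA3 (1.87 ± 0.51). Itih3, a heavy chain that is linked to hyaluronan, read 9.25 and 8.09 against 6.72 and 6.48 (2.07 ± 0.52), and A2m, a protease inhibitor, 10.18 and 9.46 against 8.95 and 7.37 (1.66 ± 0.40). Each of these 3 had CA1 arrays above both CA3 arrays and none passed (limma adjusted p = 0.551, 0.502 and 0.497). Of all genes, 12.3% were higher in CA1 without overlap. These 3, like the other leading genes, were named for their size in both pairs, so the lack of overlap follows in part from the choice. The basement membrane collagen chain Col4a5 (1.42 ± 0.43) and the proteoglycan decorin, Dcn (2.05 ± 0.59; 6.09 and 7.20 against 4.51 and 4.68), lay the same way.

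The wider matrix list was mixed. Of 34 measured matrix and proteoglycan genes, 20 were higher and 14 lower, with a median of 0.13 that was -0.18 in pair 1 and 0.41 in pair 2. Dcn is also a fibroblast marker; of the 12 fibroblast, meningeal and choroid plexus markers, 9 were lower in CA1, with a median of -0.32, and their mean level was 5.69 and 5.72 in CA1 and 6.10 and 5.30 in CA3.

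Among intracellular genes, S100a6, a calcium-binding protein, read 8.61 and 8.48 in CA1 against 6.99 and 6.70 in CA3 (1.70 ± 0.39), one of the most even differences between replicates. The AMP deaminase Ampd3 (1.41 ± 0.29), Ankrd6 (1.37 ± 0.27), the BMP signalling coactivator Zcchc12 (1.62 ± 0.43) and Maob, the monoamine oxidase of astrocytes (1.38 ± 0.44), were also at least 2-fold higher in both pairs. Their adjusted p values lay between 0.484 and 0.614 (limma). Of 13 measured astrocyte markers, 10 were higher in CA1 with a median of 0.31 (0.02 in pair 1 and 0.44 in pair 2), and none had an unadjusted p under 0.05. Their mean level was 8.90 and 8.73 in CA1 and 8.75 and 8.29 in CA3, and the astrocyte filament gene Gfap read 13.03 and 12.99 against 12.92 and 12.47. The part of this marker shift in the differences above was not tested.

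**Figure D3:**
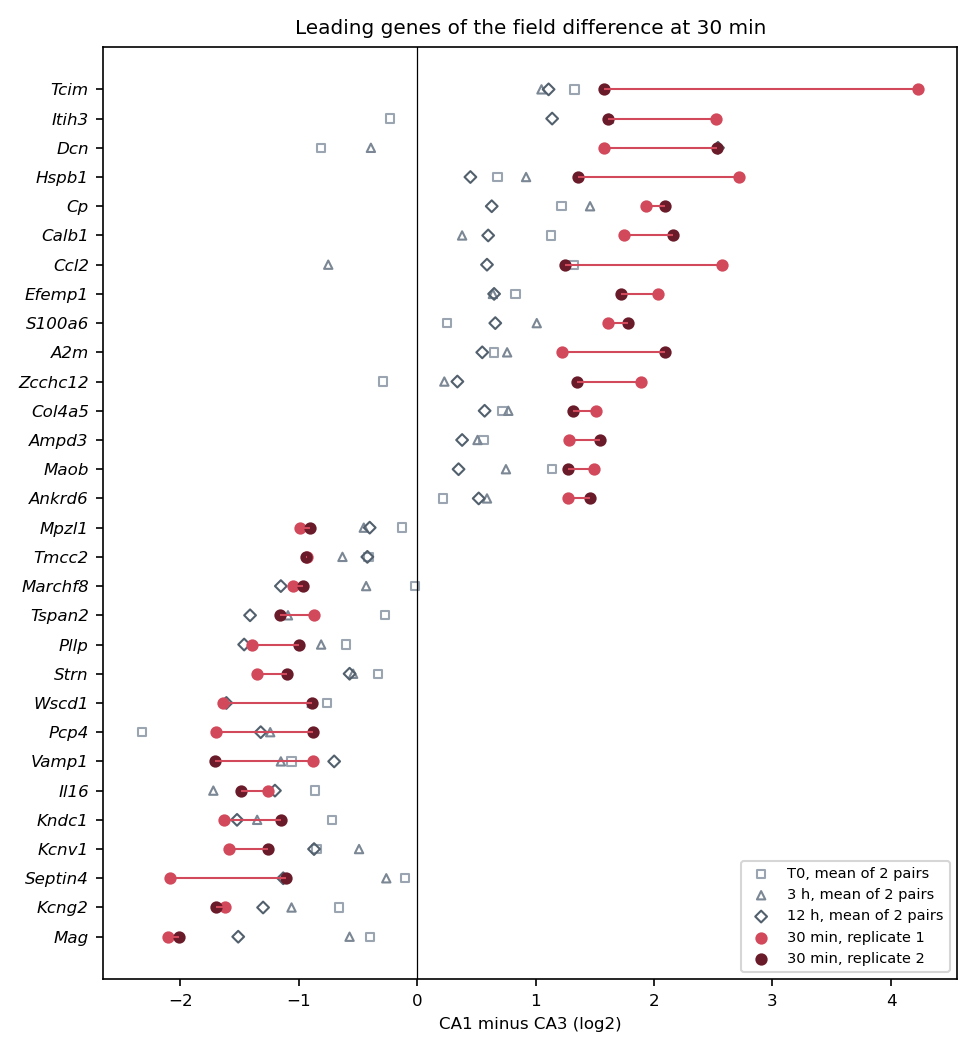
CA1 minus CA3 difference (x axis, log2) of the 15 genes higher and 15 lower in CA1 with the largest difference shared by both pairs of 30 min (filled points, 1 per pair, joined by a line), with open points for the means of the 2 pairs at T0, 3 h and 12 h. Mag lies at -2.10 and -2.01 at 30 min and at -0.40 at T0, and most genes keep their side of 0 at the other times at a smaller size. The genes were chosen by their size at 30 min, so the smaller size at other times follows in part from the choice.

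Arrays of the other times, which had no part in choosing these genes, mostly gave the same direction for the lower genes. All 8 genes at least 2-fold lower in CA1 had the same sign in 5 or 6 of the 6 other pairs (100%), against 14.2% of the 3229 genes lower in both pairs of 30 min. Their median of -1.41 at 30 min compares with -0.63 (T0), -0.69 (3 h) and -1.25 (12 h). Of the 43 higher genes, 23 (53.5%) did so, against 20.5% of the 2811 genes higher in both pairs, with a median of 1.30 at 30 min beside 0.61 (T0), 0.46 (3 h) and 0.54 (12 h). Both sets were chosen by their size at 30 min, so a larger median at that time follows in part from the choice. The 3229 and 2811 genes set beside them include differences of any size, with medians of -0.23 and 0.32 at 30 min. They were not matched to the chosen genes in size or level.

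For the 43 higher genes the other times differed by replicate. Across T0, 3 h and 12 h in that order, their median was 0.92, 1.23 and 0.97 in replicate 1 and 0.23, -0.01 and 0.07 in replicate 2. At 30 min the medians were 1.37 and 1.27, where the choice of the genes required both replicates to be high. That both replicates were high at 30 min is therefore no result. S100a6 shows the pattern, with 0.91, 1.76 and 0.99 in replicate 1 at T0, 3 h and 12 h and -0.41, 0.25 and 0.33 in replicate 2. The 8 lower genes had medians below 0 in both replicates at each time.

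Immediate early genes stood higher in CA1 for most of their list. Klf4, a zinc finger transcription factor, read 8.05 and 7.97 in CA1 and 6.06 and 7.04 in CA3. Both CA1 arrays were above both CA3 arrays, with a difference of 1.46 ± 0.29 (2.75-fold, adjusted p = 0.484). Gadd45g, a stress sensor that binds cell cycle kinases, read 8.80 and 8.12 against 6.88 and 7.24 (1.40 ± 0.29), and Ier2, a nuclear immediate early protein, 8.70 and 9.11 against 7.17 and 8.31 (1.16 ± 0.27), both without overlap. Atf3, a stress-induced repressor of the ATF family, read 9.97 and 7.86 against 8.20 and 7.05 (1.29 ± 0.36), with overlap between the groups.

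Members better known as early response genes were chosen here after their values were seen. Jun, the AP-1 subunit, read 10.99 and 10.32 in CA1 and 9.70 and 9.75 in CA3 (0.93 ± 0.23), and its 2 other probe sets gave 0.35 to 1.20. Zfp36, whose protein destabilises AU-rich mRNAs, read 7.27 and 7.46 against 6.29 and 6.90 (0.77 ± 0.19). Fos read 11.41 and 11.15 against 10.65 and 10.51 (0.70 ± 0.34), but its other probe set gave -0.28. The groups of these 3 genes did not overlap, whereas those of Dusp1, a phosphatase that switches off MAP kinases (0.53 ± 0.19; other probe set -0.02), and of the zinc finger factor Egr1 (1.02 in pair 1 and -0.10 in pair 2) did.

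Of 42 listed immediate early and activity genes 38 were measured, and 31 of them lay on the higher side of CA1 in the mean (against 47.2% of all genes) and 7 on the lower; 23 were higher and 3 lower in both pairs. None passed, 12 had an unadjusted p under 0.05 on the higher side, against 4.87% of all genes, and 13 had non-overlapping groups on that side, against 12.3%. The list's median was 0.40, and it was 0.75 in pair 1, with 32 of 38 higher, and 0.16 in pair 2, with 26 of 38 higher. The list's mean level was 7.29 and 7.32 in CA1 and 6.56 and 7.17 in CA3, so that CA3 replicate 1 was the array that stood apart. With the median over all probe sets of each gene it was 0.23. The other times gave medians of 0.03 (T0), -0.15 (3 h) and 0.24 (12 h), so its direction was not the same at all times. The neuronal activity gene Bdnf, a neurotrophin chosen after its values were seen, split by pair, with 1.91 in pair 1 and -1.38 in pair 2.

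Promoters of 3 of these genes are shown because CArG boxes, bound by serum response factor, and cyclic AMP response elements (CRE), bound by CREB, are known elements of immediate early genes. The sequences are 60-base stretches before the annotated start from RefSeq, assembly GRCr8, written 5' to 3' on the gene's strand, with the motif in capitals. Each motif was searched on both strands, which its symmetric pattern covers at once. Zfp36 holds a CArG box 32 bases before its start, and Ier2 and Dusp1 each hold a CRE, at 66 and 124 bases.
Zfp36 (chr1:92799109-92799168, minus strand, CArG box): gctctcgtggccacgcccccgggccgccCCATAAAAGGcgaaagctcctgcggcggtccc
Ier2 (chr19:40399281-40399340, plus strand, CRE): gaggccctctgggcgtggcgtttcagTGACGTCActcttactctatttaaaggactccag
Dusp1 (chr10:17184703-17184762, plus strand, CRE): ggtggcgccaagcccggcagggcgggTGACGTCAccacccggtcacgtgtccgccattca
In the 250 bases before the start, a CArG box was found in 4 of the 28 list members with a promoter sequence (14.3%: Egr1, Egr2, Dusp5 and Zfp36), against 112 of 8630 measured genes (1.3%). The CRE, TGACGTCA, was found in 3 of 28 (10.7%: Jund, Ier2 and Dusp1), against 229 of 8630 (2.65%). A match describes these letters and is not a measured site. Klf4 and Gadd45g held neither motif in this window.

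Genes of the protein stress responses had smaller differences. Of 24 measured genes of the integrated stress and unfolded protein responses, which slow translation and raise chaperones when proteins misfold, 19 were higher in CA1 and 13 were higher in both pairs. Their median was 0.30 (0.29 in pair 1 and 0.25 in pair 2), and 3 of 24 had an unadjusted p under 0.05 on the higher side, against 4.87% of all genes. The pro-apoptotic factor Ddit3 (CHOP) read 8.29 and 7.99 in CA1 against 6.97 and 7.56 in CA3 (0.87 ± 0.31), and Chac1, which degrades glutathione, 8.42 and 8.33 against 7.55 and 8.02 (0.59 ± 0.25). Both had no overlap, as had the chaperone Dnajb9 (0.75 ± 0.43) and asparagine synthetase, Asns (0.71 ± 0.42). Of all genes, 12.3% were higher in CA1 without overlap, and these 4 were named for having the same sign in both pairs. Asns differed by 1.40 in pair 1 and by 0.02 in pair 2, with CA3 replicate 1 apart at 6.99. None of the 4 passed (limma adjusted p from 0.676 to 0.829).

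Antioxidant genes had small median differences. NRF2 target genes, which NRF2 induces under oxidative stress, had 10 of 16 higher, with a median of 0.09 (0 in pair 1 and 0.32 in pair 2). Me1, an NADPH-making malic enzyme, was the member furthest apart, with 9.04 and 8.65 against 7.72 and 7.98 (1.00 ± 0.36; 0.73 on its other probe set; adjusted p = 0.694). Nfe2l2, which encodes NRF2 itself, was among the 43 genes at least 2-fold higher in both pairs (1.02 and 1.36), and is named here after its values were seen. Of 16 superoxide dismutase, catalase, peroxidase and peroxiredoxin genes, 13 were higher, with a median of 0.17; mitochondrial Sod2 read 7.61 and 7.32 against 6.56 and 7.14 (0.62 ± 0.44). Of 14 heat shock genes 9 were higher (median 0.24), and beside Hspb1 the nearest was the cytosolic chaperone Hsp90ab1 (0.66 ± 0.25), whose other probe set gave -0.25.

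Chemokine genes were far apart in pair 1 and less so in pair 2. Cxcl1, a neutrophil attractant, read 10.29 and 8.01 in CA1 and 6.74 and 7 in CA3 (2.28 ± 0.68), with 3.55 in pair 1 and 1.01 in pair 2. Ccl3, a macrophage attractant, read 9.26 and 7.97 against 7.51 and 6.83 (1.44 ± 0.29), also without overlap. Ccl2, the main monocyte attractant, read 11.40 and 6.32 against 8.83 and 5.07 (1.91 ± 0.62), with overlap, and Cxcl2 8.53 and 4.44 against 4.74 and 4.39, so that the latter difference is that of 1 array. Of 31 chemokine, cytokine and prostaglandin genes, 17 were higher and 14 lower, with a median of 0.13 (0.36 in pair 1, -0.02 in pair 2), and 8 of 31 had an unadjusted p under 0.05, all on the higher side, against 4.87% of all genes.

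Microglia markers had opposite signs in the pairs. Their 16 measured members had a median of -0.45 in pair 1, where 2 were higher, and 0.95 in pair 2, where 15 were higher, and 13 had opposite signs. Their mean level was 8.30 and 8.10 in CA1 and 8.74 and 7.17 in CA3, so that the low array was CA3 replicate 2. C1qc, a complement subunit made by microglia (chosen after its values were seen), read 9.30 and 10.38 in CA1 and 9.81 and 8.78 in CA3. The chemokine genes above were most apart in the pair where microglia markers were lower in CA1; the part of the marker level in their differences was not tested.

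Markers of the fields themselves were only partly in their labelled direction. Of 8 measured CA1 pyramidal markers 7 were higher in CA1, 6 in both pairs, with a median of 0.49 (0.36 and 0.57); 4 of the 8 had a mean of at least 6. The orphan receptor gene Gpr161 read 7 and 6.59 in CA1 and 4.85 and 6.10 in CA3 (1.32 ± 0.41), Mpped1 5.64 and 9.26 against 5.09 and 7.16 (1.32 ± 0.69), and Wfs1, the wolframin of the endoplasmic reticulum, 5.99 and 6.99 against 5.55 and 6.31 (0.56 ± 0.27, with -0.23 on its other probe set). Only Gpr161 of these 3 had groups without overlap. The direction of the list was not the same at all times. Its median was -0.06 and -0.19 in the T0 pairs, with 3 of 8 higher in each. It was -0.38 and 0.47 in the pairs of 3 h and 1.16 and 1.15 in those of 12 h. Gpr161 (-0.51 and -0.24) and Mpped1 (-0.99 and -1.10) were lower in CA1 in both T0 pairs, and Wfs1 (0.23 and 0.02) was higher. The transcription factor Pou3f1 lay at 0.81 ± 0.32, Man1a1 at 0.42 ± 0.22, Ccn3 at 0.31 ± 0.24, Spink8 at 0.04 ± 0.18 and Fibcd1 at -0.23 ± 0.45, with Pou3f1, Spink8 and Fibcd1 low on all 4 arrays, between 3.59 and 5.21.

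CA3 markers did not separate the fields. Of 5 measured, 2 were higher and 3 lower in CA1, with a median of -0.03 that was 0.21 in pair 1 and -0.69 in pair 2; in the 6 other pairs it was below 0, from -0.66 to -0.09. The kainate receptor subunit Grik4 read 5.56 and 5.51 in CA1 and 5.98 and 6.61 in CA3 (-0.76 ± 0.30, adjusted p = 0.714), with no overlap. Nnat, an imprinted membrane protein, was higher in CA1 in pair 1 by 1.05 and lower in pair 2 by -0.69, whereas it averaged -2.20 at T0, -1.63 at 3 h and -1.34 at 12 h. Bok (0.10 ± 0.20) and Socs2 (-0.03 ± 0.32) lay near 0 within their errors. Spock1 (-0.29 ± 0.28) was 0.25 in pair 1 and -0.83 in pair 2, and it was lower in CA1 in all 6 other pairs. Socs2 and Spock1 were low on all 4 arrays, between 3.90 and 4.84.

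All 7 CA2 markers were lower in CA1 in the mean, against 52.8% of all genes, and 5 in both pairs, against 31%. Their median was -0.22 (-0.27 in pair 1 and -0.38 in pair 2), and 4 of the 7 had a mean of at least 6. At the other times the list's median was nearer 0, with -0.01 and 0.01 in the T0 pairs, -0.19 and -0.17 at 3 h and -0.09 and -0.02 at 12 h. Cacng5, Avpr1b and Ntf3 were low on all 4 arrays, between 3.73 and 4.97. Pcp4, a calmodulin regulator, read 6.97 and 8.65 in CA1 against 8.67 and 9.53 in CA3 (-1.29 ± 0.26, adjusted p = 0.484) and was lower in CA1 in all 6 other pairs. The others lay between -0.33 and -0.13 with errors of 0.18 to 0.29: Amigo2, Rgs14, Necab2, Cacng5, Avpr1b and Ntf3.

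Several genes and 2 lists of neurons gave unlike differences in the 2 pairs at 30 min, often of opposite sign. The vesicle sensor Syt4 read 10.25 and 9.89 in CA1 and 5.94 and 9.59 in CA3, so that the CA3 replicate 1 array stood apart (4.31 in pair 1, 0.30 in pair 2; 0.20 in the mean on its other probe set). Snap25, a SNARE of the synapse chosen after its values were seen, read 9.29 and 9.49 against 7.45 and 9.94, which is 1.85 in pair 1 and -0.46 in pair 2. In the other 6 pairs Snap25 was lower in CA1, by -2.47 at T0, -2.40 at 3 h and -0.95 at 12 h in the mean.

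Of 26 neuronal growth and synaptic vesicle genes, 21 were higher in CA1 in pair 1 (median 0.40) and 5 in pair 2 (median -0.48), and 18 had opposite signs; in the 6 other pairs the median ran from -1.21 to -0.22. Their mean level was 7.23 and 8.15 in CA1 and 6.52 and 8.67 in CA3. Of 11 excitatory neuron markers, 8 were higher in pair 1 (median 0.33) and 2 in pair 2 (median -0.57). The 11 inhibitory neuron markers were less split, with 3 higher and 5 lower in both pairs and 3 of opposite sign (median 0.26 in pair 1 and -0.19 in pair 2). The vesicular glutamate transporter Slc17a7, chosen after its values were seen, read 6.41 and 7.09 against 5.83 and 8.99. Sv2b (0.63 ± 0.19) and Neurod2 (-0.56 ± 0.24) lay evenly in both pairs, in opposite directions, and the other probe sets of Sv2b gave -1.03 to -0.22.

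**Figure D4:**
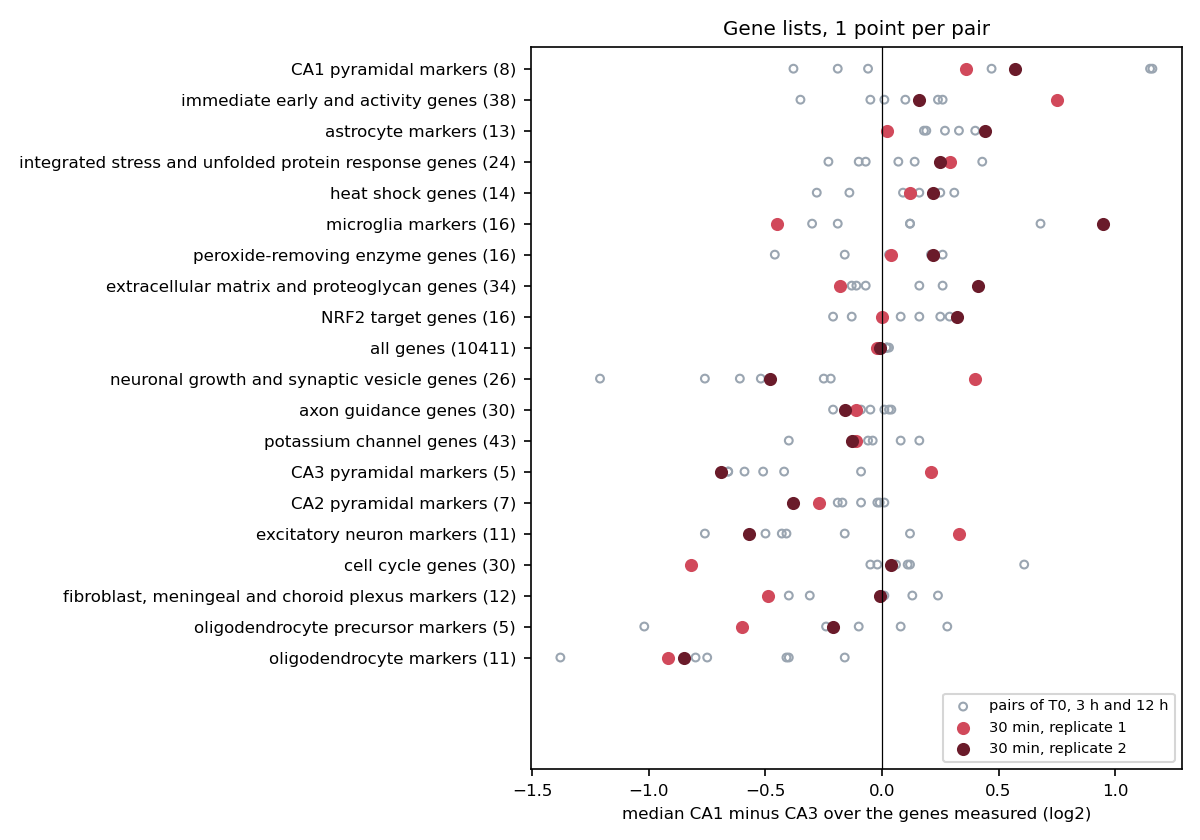
Median CA1 minus CA3 difference (x axis, log2) over the measured genes of each list (number in parentheses), 1 point per pair, filled for the 2 pairs of 30 min and open for the 6 pairs of the other times. The oligodendrocyte list lies at -0.92 and -0.85 at 30 min and below 0 in every pair, while microglia, excitatory neuron and neuronal growth lists lie on both sides of 0 at 30 min.

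Receptor and channel genes also had small median differences. Over all genes 52.8% were lower in CA1 in the mean and 31% in both pairs. Of 9 AMPA and kainate receptor genes 8 were lower in CA1, 5 in both pairs, with a median of -0.16, and 4 of 9 had a mean of at least 6. Grik5 lay at -0.72 ± 0.30, Gria3 at 0.45 ± 0.29 and Gria2 at -0.16 ± 0.19, with 0.42 on the other probe set of Gria2. Of 43 potassium channel genes 32 were lower and 23 lower in both pairs, but 10 of 43 had a mean of at least 6 and the median was -0.13. Beside Kcnv1, Kcna1 read 6.16 and 6.34 against 6.43 and 8.30 (-1.11 ± 0.37) and Kcnd3 5.99 and 6.07 against 4.75 and 5.89 (0.71 ± 0.26), but the other probe set of Kcnd3 gave -0.04. Of 30 axon guidance genes 24 were lower and 19 lower in both pairs (median -0.13), but 7 of 30 had a mean of at least 6. Among them the guidance cue Sema3c lay at 1.11 ± 0.26 and Sema4a at -1.07 ± 0.31, neither overlapping.

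Cell cycle genes were lower in CA1 in pair 1. Of 30 measured, 27 were lower in the mean (median -0.28), against 52.8% of all genes, with a median of -0.82 in pair 1 and 0.04 in pair 2. An unadjusted p under 0.05 on the lower side was found for 4 of 30, against 2.47% of all genes. Cdk1, the mitotic kinase, read 6.48 and 6.55 in CA1 and 8.47 and 6.65 in CA3 (-1.05 ± 0.40), so that CA3 replicate 1 was the high array, as it was for the replication helicase subunit Mcm5 (6.46 and 6.28 against 7.94 and 6.45). At T0 the list's median was 0.37.

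The difference between the fields at 30 min was compared with that at T0, which shares no array with it. None of 15866 probe sets passed (0%; smallest adjusted p = 0.84, limma), and 595 had an unadjusted p under 0.05 (3.75%), fewer than the 793 given by chance. Against the mean of T0, 3 h and 12 h, 0 passed (0%; smallest adjusted p = 0.508) and 837 had an unadjusted p under 0.05 (5.28%). No gene's difference was thus shown to be particular to 30 min.

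The 5 genes with the largest moderated statistic against T0 were Mag and 4 genes of neurons and vesicle traffic. For Mag the step from T0 was -1.65 ± 0.30, from -0.75 and -0.06 in the T0 pairs. The prohormone convertase chaperone Scg5 went from -2.57 and -2.43 at T0 to 2.04 and 0 at 30 min, a step of 3.52 ± 0.57, and the growth cone protein Stmn2 from -3.26 and -2.52 to 2.02 and -0.17, a step of 3.82 ± 0.66. For both, the T0 pairs were alike and the 30 min pairs were not. Mal2 stepped by 2.48 ± 0.45 and Elmod1 by 2.92 ± 0.53, and adjusted p was 0.84 for all 5.

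One pair decides whether any probe set passes. Without replicate 2 at 30 min, whose control signals were low, 2 probe sets passed: Syt4 (4.31, adjusted p = 0.00231) and a probe set with no gene name (3.48, adjusted p = 0.0175). The lone pair is then assumed to vary like the pairs of the other times, and in the left-out pair Syt4 was 0.30. Against T0 these 2 and Scg5 (4.54, adjusted p = 0.0198) passed, and 0 passed without replicate 1 at 30 min.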

How the data were processed

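The deposited values are on a log2 scale; the submitters' processing notes name RMA as the authors' method, with no version. RMA equalises the distributions of the arrays, so that a change of total mRNA cannot be seen. Per the labels' protocols, biotin was put in by a labelling in 2 cycles, which amplifies RNA. Values ran from 2.82 to 14.0 and array medians from 5.814 to 5.941; the number of arrays limits the precision.

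After 57 of 15923 probe sets were set aside as controls, 15866 were tested. Annotation of the platform named 1 gene for 12783, several for 312 and none for 2771; 12748 matched the RefSeq table (GRCr8), which changed 0 symbols. The probe set with the highest mean stands for each of 10411 genes.

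Differences CA1 minus CA3 of the same time and replicate number, 8 in all, were fitted with limma 3.58.1 (R 4.3.3) with 4 time means, 4 residual degrees of freedom and a prior worth 5.17, and p-values adjusted by Benjamini-Hochberg within each of 3 contrasts. Same-numbered arrays were treated as pairs as planned for this comparison, although no label explains the number. Deviations from the group means correlated between fields at 0.57, 0.67, 0.58 and 0.57 (T0, 30 min, 3 h and 12 h). An exact permutation of 2 arrays against 2 cannot give a p below 0.333. Errors after ± are moderated standard errors. The fit was tested on simulated data.

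Named genes are the 15 higher and 15 lower with the largest smaller-of-both-pairs difference and a mean of at least 6 in the higher field, all field markers, up to 4 such members per list with the same sign in both pairs, the 5 furthest from T0, and cell type markers. The 40 lists hold 869 genes, 693 measured. Members, lists and tests were chosen with earlier results of these data known. Alternatives were no pairing, a random block, loess, a filter on dim probe sets, a trended prior, only the 30 min pairs, each pair left out, and all probe sets of a gene.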

Additional observations from a re-analysis of the deposited data

Results flagged for a closer look

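Among the leading genes and the 5 genes furthest from T0, 3 had the opposite sign in both pairs of 30 min to both pairs of another time. Dcn was 2.05 higher in CA1 at 30 min and -0.81 at T0, a step of 2.87. Mal2, a protein of vesicle traffic, was 0.76 at 30 min against -1.73 at T0, a step of 2.48, and against -0.91 at 3 h, a step of 1.67, which was not tested by itself. Elmod1 was 0.46 at 30 min and -2.46 at T0, a step of 2.92. The steps from T0 were fitted and did not pass (limma adjusted p = 1 for Dcn and 0.84 for the other two). Only the leading genes of either direction and the 5 genes furthest from T0 were examined for such splits, and other named genes also had them. Examples are Syt4 and the CA1 markers Gpr161 and Mpped1, higher in CA1 in both pairs of 30 min and lower in both pairs of T0.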

How the results depend on the processing

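No probe set passed at 30 min in the pair fit or under the alternatives other than leaving out 1 pair (no replicate block, random block with a correlation of 0.39, loess, filter on dim probe sets, trended prior, only the 30 min pairs). Leaving out 1 pair gave 0 to 2 probe sets at 30 min, 0 to 3 against T0 and 0 to 2 against the mean of the other times, and only leaving out replicate 2 of 30 min gave any. Counts at an unadjusted p under 0.05 depended on the setting. With no replicate block, that is without the pairing, they were 324 at 30 min, 133 against T0 and 232 against the other times, where the pair fit gave 1028, 595 and 837. With only probe sets of a mean of at least 6 they were 592, 327 and 477, from fewer probe sets tested. Leaving out 1 pair they ran from 525 to 1363 at 30 min, from 270 to 1124 against T0 and from 300 to 1375 against the other times. The lowest of each came without replicate 1 of 30 min. Against T0 the count was 282 without T0 replicate 1, and against the other times 1311 without 3 h replicate 1 and 557 without 12 h replicate 2. The counts of genes at least 2-fold apart in both pairs stayed within 36 to 43 higher and 6 to 12 lower under loess, the filter and all probe sets.

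Named genes that changed direction with 1 pair of 30 min left out are given without replicate 1 and then without replicate 2. Among neuronal, field marker and activity genes these were Snap25 (-0.46, 1.85), Stmn2 (-0.17, 2.02), Bdnf (-1.38, 1.91), Nnat (-0.69, 1.05), Egr1 (-0.10, 1.02), Slc17a7 (-1.90, 0.57), Amigo2 (-0.87, 0.21), Rgs14 (-0.56, 0.30), Spock1 (-0.83, 0.25), Ccn3 (-0.04, 0.67) and Fibcd1 (0.05, -0.51). Microglia markers were P2ry12 (1.17, -1.09), C1qc (1.60, -0.51) and Csf1r (0.99, -0.55), and the cell cycle gene was Top2a (0.13, -0.71). Socs2 turned under loess (0.06), and with the median over all probe sets Sv2b (-0.22), Gria2 (0.13) and P2ry12 (-0.09) turned. The cause was not tested. No call at 30 min rests on the replicate block, since none was made with or without it.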

Other observations

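Some other lists had small medians with most members on one side. Of 17 glucose transport and glycolysis genes 15 were higher in CA1 in the mean (88.2%, against 47.2% of all genes). Only 6 were higher in both pairs (35.3%, against 27% of all genes). Their median was 0.13, with 0.21 in pair 1, where 14 were higher, and -0.02 in pair 2, where 7 were higher. Of 18 cytosolic ribosomal protein genes 16 were higher (88.9%; median 0.14), with -0.02 in pair 1 and 0.34 in pair 2, and -0.01 after loess. Forebrain transcription factor genes had 17 of 27 higher (63.0%) and 13 higher in both pairs (48.1%), with a median of 0.16 that was 0.18 in pair 1 and 0.16 in pair 2. Respiratory chain genes (30, median -0.04), proteasome genes (24, median 0) and Bcl2 family and caspase genes (16, median -0.01) had medians near the -0.02 of all genes. None of these lists had a member that passed.

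Further genes at least 2-fold higher in CA1 in both pairs, named after their values were seen, were the secreted chaperone clusterin, Clu (1.78 and 1.10), the interferon-induced genes Ifitm3 (2.08 and 1.17), Gbp2 (1.74 and 1.14) and Rsad2 (1.85 and 1.15), the calpain inhibitor Cast (1.08 and 1.35), the calcineurin regulator Rcan1 (1.31 and 1.13) and the transcription factor Klf6 (1.05 and 1.06). Ifitm3, Rsad2 and Klf6 were higher in CA1 in all 6 other pairs, Klf6 by 0.07 to 1.39.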
